A study of Macaca fascicularis with 2 samples.

Results

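*TRAV10*, *TRAV22*, *TRAV24* and *TRBV25-1* are 4 variable gene segments of the T cell receptor, 3 of the alpha chain and 1 of the beta chain, that carry symbols in the gene annotation of the cynomolgus monkey (*Macaca fascicularis*) used for these data. Their cells were taken by symbol, as every cell with at least 1 unique molecular identifier (UMI, a counted transcript molecule) of the segment. Of 8830 cells kept, 162 held *TRAV10* (identifier ENSMFAG00000018221), 940 *TRAV22* (ENSMFAG00000000524), 170 *TRAV24* (ENSMFAG00000017616) and 30 *TRBV25-1* (ENSMFAG00000030395). In all, 1262 cells (14.3%) held any of the 4, and 37 of these held more than 1. The 4 segments were picked with measured values of these data known, including how many cells held them and which marker genes those cells carried, so they were selected on those values and what follows is a description with no test.

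The alpha and beta chains of a T cell receptor are each assembled in the thymus from 1 variable segment and a joining segment (the beta chain also takes a diversity segment), so a cell hands its segments on to its descendants, while many unrelated clones share a given segment. Most such receptors read peptides on classical MHC molecules, while invariant natural killer T (NKT) cells read lipids on CD1d. In the human nomenclature the invariant NKT receptor joins *TRAV10*, once called Vα24, to *TRAJ18* and pairs it with *TRBV25-1*, once called Vβ11, whereas the segment now named *TRAV24* is a different one. The transcription factor ZBTB16 (PLZF) sets up the innate-like program of NKT cells and of other unconventional T cells.

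The cells were CD4+CD8+ T cells from the fresh peripheral blood of 1 untreated monkey aged 10 years, enriched with magnetic beads first for CD4 and then for CD8. They were labelled with CD4 and CD8 antibody tags carrying barcodes and read with 5′ chemistry, in which the reads start at the variable end of a receptor transcript. The gene library and the tag library come from the same 8953 barcodes, of which 8830 met the study's limits of 200 to 4000 genes and at most 20% mitochondrial UMIs. With 1 animal and 1 library pair there are no replicates, and all intervals are exact 95% intervals that cover counting error only.

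The kept cells held 31677119 gene UMIs, with a median of 3145 per cell. All 1262 cells with a segment also held a UMI of *CD3D*, *CD3E*, *CD3G* or *TRAC*, the genes of the receptor's signalling chains and of its alpha constant region, while 170 of the 8830 cells lacked one. None of 112 B cells (at least 5 UMIs of B cell genes and at most 1 of those 4 T cell genes, median depth 4550 UMIs) held any annotated alpha beta variable segment, which allows a share of up to 2.68%. The share of *TRAV22* lies above that limit, and those of the other 3 segments are too small to be told from it in so few B cells. The depth of the cells with *TRAV10* (median 3432 UMIs), *TRAV22* (3265), *TRAV24* (3431) and *TRBV25-1* (3587) was above the median of all cells.

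*TRAV22* was the most often detected of the 32 alpha beta variable segments with a symbol, in 10.7% of cells (10.0 to 11.3). *TRAV24* was found in 1.93% (1.65 to 2.23) and *TRAV10* in 1.84% (1.57 to 2.14), 18th and 19th in order, and these neighbours did not differ beyond their counting error. *TRBV25-1* was found in 0.340% (0.229 to 0.485), with *TRBV5-4* the least detected of the 32, each in 30 cells. The other 28 segments were found in 30 to 794 cells, with a median of 200.5. These are shares of cells with a UMI and not transcript levels, which 5′ counts of different segments do not compare. With each cell thinned to 2200 UMIs, which leaves out 754 shallower cells, the shares were 1.66% for *TRAV10*, 9.03% for *TRAV22*, 1.62% for *TRAV24* and 0.285% for *TRBV25-1*.

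**Figure D1:**
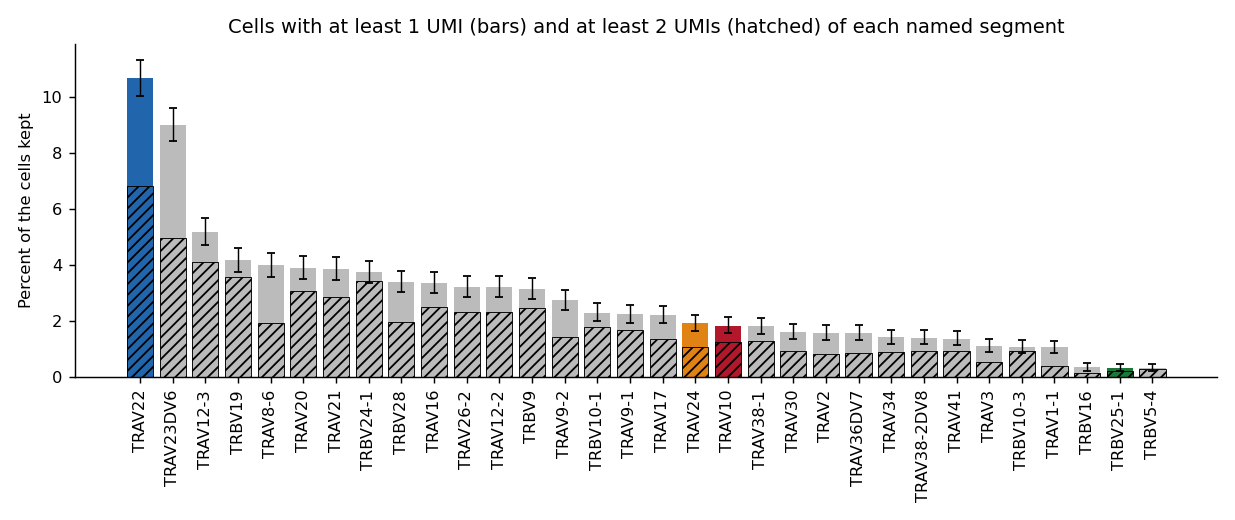
Percent of the 8830 kept cells with at least 1 UMI of each of the 32 named alpha beta variable segments; bars carry exact 95% binomial intervals, hatching shows cells with at least 2 UMIs, and the 4 coloured bars are *TRAV10*, *TRAV22*, *TRAV24* and *TRBV25-1*. *TRAV22* stands highest at 10.7%, *TRAV24* and *TRAV10* lie in the middle at 1.93% and 1.84%, and *TRBV25-1* is lowest at 0.340%.

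Many of these cells rested on a single molecule. *TRAV24* was at 1 UMI in 74 of its 170 cells (43.5%), *TRAV22* in 339 of 940 (36.1%), *TRBV25-1* in 10 of 30 (33.3%) and *TRAV10* in 51 of 162 (31.5%). At the other end, 66 cells held at least 4 UMIs of *TRAV10*, 230 of *TRAV22*, 46 of *TRAV24* and 7 of *TRBV25-1*, with highest counts of 23, 30, 23 and 7 in a cell. Among the other 28 segments the share of positive cells at 1 UMI ran from 8.49% to 61.7%, with a median of 31.0%. Any of the 23 named alpha segments was found in 4941 cells (56.0%), and any of the 9 named beta segments in 1585 (18.0%). Named segments thus account for the alpha chain of far more cells than the beta chain.

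In the cells of an alpha segment another named alpha segment is a second one, but in the cells without it it can be the first. These shares are thus unlike, and a lower one in the segment's cells does not show that second alpha segments are rarer there. Another named alpha segment was present in 35.2% of *TRAV10* cells, 34.0% of *TRAV22* cells and 30% of *TRAV24* cells, against 55.1%, 50.7% and 55.1% of the cells without each. When the segment and the other alpha segment both had to reach 2 UMIs, the shares in the segment's cells were 27.0%, 20.5% and 16.7%. *TRBV25-1* cells, which carry a beta segment, held a named alpha segment in 26 of 30 (86.7%), against 55.9% of the other cells. With both segments at 2 UMIs or more this was 14 of 20 *TRBV25-1* cells (70%). Between the 3 alpha segments, *TRAV22* shared 15 cells with *TRAV10* and 9 with *TRAV24*, and *TRAV10* shared 3 with *TRAV24*.

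The segment that went most clearly with another of the 4 was *TRBV25-1* with *TRAV10*. Of the 30 *TRBV25-1* cells, 11 held *TRAV10* (36.7%, 19.9 to 56.1), against 1.72% of the cells without *TRBV25-1*. In the other direction, 6.79% of *TRAV10* cells (3.44 to 11.8) held *TRBV25-1*, against 0.219%. In 9 of the 11 cells both segments reached 2 UMIs. *TRBV25-1* shared 5 cells with *TRAV22* (16.7% of *TRBV25-1* cells, against 10.6%) and 0 of the 170 *TRAV24* cells, where the upper limit of the interval is 2.15%.

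By the phi coefficient of detection over all 8830 cells, the feature most like *TRAV10* was ENSMFAG00000028841 (0.154), an entry without a symbol, followed by *TRBV25-1* (0.152) and a further entry without a symbol, ENSMFAG00000040021 (0.130). The features most like *TRAV22* were ENSMFAG00000030274 (0.143) and ENSMFAG00000027795 (0.0619), also without symbols, and the splicing factor gene *SRSF5* (0.0537). For *TRAV24* they were *GZMK* (0.0702), *SAMD3* (0.0657) and *GZMA* (0.0655), of which *GZMK* and *GZMA* encode granzymes, the proteases of cytotoxic granules. For *TRBV25-1* they were *TRAV10* (0.152), *ZBTB16* (0.119) and *CPE* (0.112). All of these coefficients are small, and cells of 1 library share their source.

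Measured over whole gene lists, *TRAV10* and *TRAV24* cells leaned to cytotoxic genes and away from naive genes, *TRAV22* cells hardly differed from the rest, and *TRBV25-1* cells were high in innate-like genes and low in naive genes. The cytotoxic list held 21 measured genes of granules, surface receptors and transcription factors. It reached 4376 CPM (counts per 1000000 gene UMIs) in *TRAV24* cells against 2659 in cells without it, a log2 ratio of 0.72 (0.67 to 0.77). In *TRAV10* cells it was 3848 against 2673 CPM, a log2 ratio of 0.53 (0.47 to 0.58). In *TRAV22* cells it was 2884 against 2672 CPM, a log2 ratio of 0.11 (0.08 to 0.14) that turned to -0.11 (-0.15 to -0.0756) when segments were read after thinning, and *TRBV25-1* cells gave 0.03 (-0.13 to 0.19). These sums were uneven over cells. No cytotoxic UMI was found in 77 of 170 *TRAV24* cells, 76 of 162 *TRAV10* cells and 492 of 940 *TRAV22* cells. The median cell stood at 230, 164 and 0 CPM in the same order. Across the other 28 named segments the cytotoxic log2 ratio had a median of -0.84 and ran from -5.14 to 0.63, with 24 of them below 0. All 4 of the described segments lay among the 8 highest of 32. *TRAV24* was at place 1, *TRAV10* at 3, *TRAV22* at 7 and *TRBV25-1* at 8. The segments had been picked with marker genes of their cells known, so these places only describe that choice.

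The naive list (6 genes, among them *TCF7*, *CCR7* and *LEF1*, genes of T cells that have not met antigen) showed smaller differences. Its log2 ratio was -0.34 (-0.42 to -0.26) in *TRAV24* cells, -0.34 (-0.54 to -0.15) in *TRBV25-1* cells, -0.23 (-0.31 to -0.15) in *TRAV10* cells and -0.02 (-0.06 to 0.01) in *TRAV22* cells. The other 28 segments had a median of 0.14, with 3 below 0. The innate-like list (11 measured genes, among them *ZBTB16*, *KLRB1*, *CCR6* and *IL18RAP*) separated the segments in another order. It stood at 775 against 140 CPM in *TRBV25-1* cells, a log2 ratio of 2.47 (2.16 to 2.77), the highest of the 32, and at 275 against 139 CPM in *TRAV10* cells, a log2 ratio of 0.98 (0.75 to 1.2). In *TRAV22* and *TRAV24* cells it was 0.04 (-0.09 to 0.17) and -0.15 (-0.47 to 0.16), neither set apart from 0 by counting error, beside a median of -0.27 over the other 28.

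The cytotoxic lean of *TRAV10* and *TRAV24* cells was strongest in the cells with 1 UMI. Each UMI class was set against all other cells, including those with the segment at other counts. In *TRAV10* cells the cytotoxic log2 ratio was 1.26 at 1 UMI, 0.68 at 2 or 3 UMIs and -0.63 at 4 or more. In *TRAV24* cells it was 1.18, 0.06 and 0.33 in the same classes, and in *TRAV22* cells 0.03, 0.10 and 0.19. The innate-like log2 ratio of *TRAV10* was 0.18, -0.52 and 1.76 in the same classes, highest at 4 or more UMIs. That class holds all 11 cells with both *TRAV10* and *TRBV25-1*, described below. With at least 2 UMIs asked of every segment, the reference was the cells without it. *TRAV10* then stood at a cytotoxic log2 ratio of 0.04 and place 6 of 32, and *TRAV24* at 0.22 and place 3. Among the other segments, *TRBV28* (0.49, then -0.52 at 2 UMIs or more) and *TRAV30* (0.39, then -1.03) shifted in this way too, while *TRAV8-6* did not (0.63, then 0.62). The cause of the shift was not tested.

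**Figure D2:**
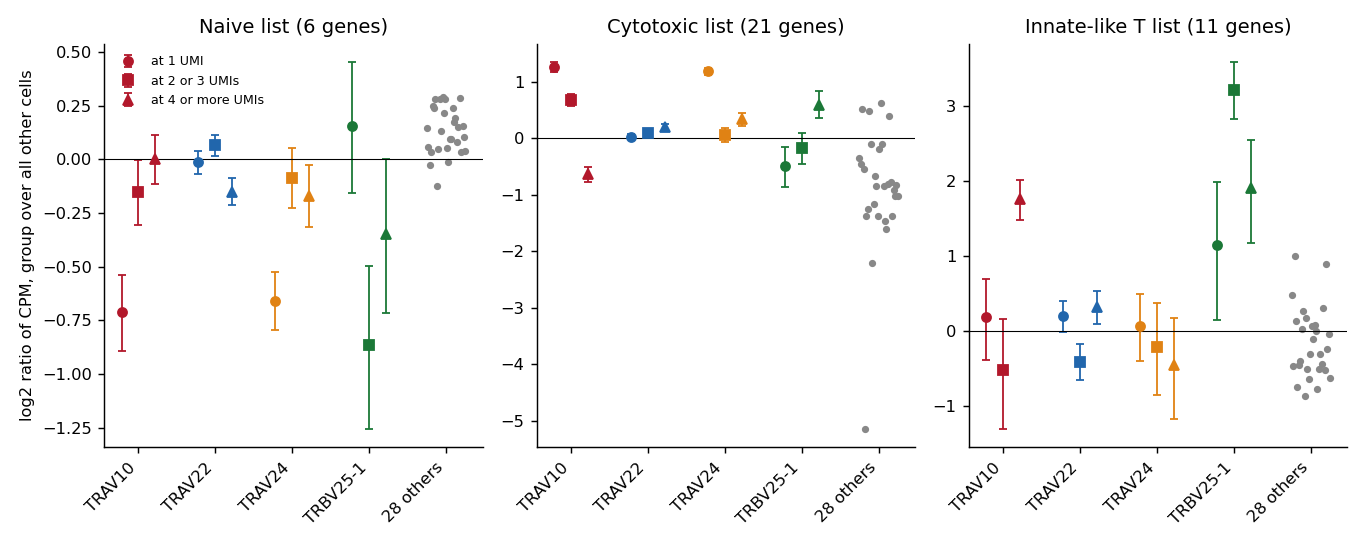
Log2 ratio of the summed CPM of the naive, cytotoxic and innate-like lists in each UMI class of a segment (1, 2 or 3, at least 4) over all other cells. Bars are exact 95% intervals. Grey points are the other 28 named segments, as cells with at least 1 UMI over cells without the segment. The cytotoxic ratio of *TRAV10* goes from 1.26 at 1 UMI to -0.63 at 4 or more, while *TRAV22* stays between 0.03 and 0.19 on the cytotoxic list. The innate-like ratio of *TRAV10* is 0.18 at 1 UMI, lower at 2 or 3 and 1.76 at 4 or more.

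The clusters, built without the variable segments, placed the cells in the same way. Of the *TRAV10* cells, 80 (49.4%) lay in clusters carrying naive markers, 33 (20.4%) in the CD4 CTL-like cluster (cytotoxic T lymphocyte markers with *CD4*) and 15 (9.26%) in the Th17-like cluster, where the cells without *TRAV10* had 59.3%, 9.46% and 3.48%. Of the *TRAV24* cells, 77 (45.3%) carried naive markers and 39 (22.9%) were CD4 CTL-like, against 59.4% and 9.40% of the rest. *TRAV24* was also found in 6 of the 48 cycling-like cells (12.5%, 4.73 to 25.3), against 1.87% of all others. These cycling-like cells were deep (median 7197.5 UMIs, against 3145 over all cells), and 3 of the 6 held 1 UMI of *TRAV24*. *TRBV28*, found in 3.39% of all cells, was likewise in 6 of the 48, so the excess was not particular to *TRAV24*. *TRAV22* was instead found in 91 of the 436 CD8 CTL-like cells (20.9%, 17.2 to 24.99), against 10.1% of the other cells, while its share in naive-marker clusters (57.4%) was near that of the rest (59.3%). Of the 30 *TRBV25-1* cells, 10 were Th17-like (33.3%, 17.3 to 52.8, against 3.49%), 12 carried naive markers and 0 were CD4 CTL-like. Most of these 10 Th17-like cells also held *TRAV10*. A naive-marker cluster of 1655 cells had more markers of other classes than naive ones among its 10 leading genes (for example *CD1A* and *SOX4*), so naive is here a name for the markers carried.

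The UMI classes split by cluster too. *TRAV10* at 1 UMI was CD4 CTL-like in 20 of 51 cells (39.2%) and at 4 or more UMIs in 0 of 66 (upper limit 5.44%), where 13 cells (19.7%) were Th17-like and 40 (60.6%) carried naive markers. *TRAV24* at 1 UMI was CD4 CTL-like in 30 of 74 cells (40.5%), at 2 or 3 UMIs in 5 of 50 and at 4 or more in 4 of 46 (8.70%). *TRAV22* was likewise CD4 CTL-like in 44 of 339 cells (12.98%) at 1 UMI and in 3 of 230 (1.30%) at 4 or more, while its CD8 CTL-like share went the other way, with 7.08% of the cells at 1 UMI and 39 of 230 (17.0%) at 4 or more. Within its CD4 CTL-like cells *TRAV10* averaged 1.55 UMIs, against 3.93 in naive-marker and 10.6 in Th17-like cells. *TRAV24* averaged 1.46 in CD4 CTL-like and 3.01 in naive-marker cells.

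**Figure D3:**
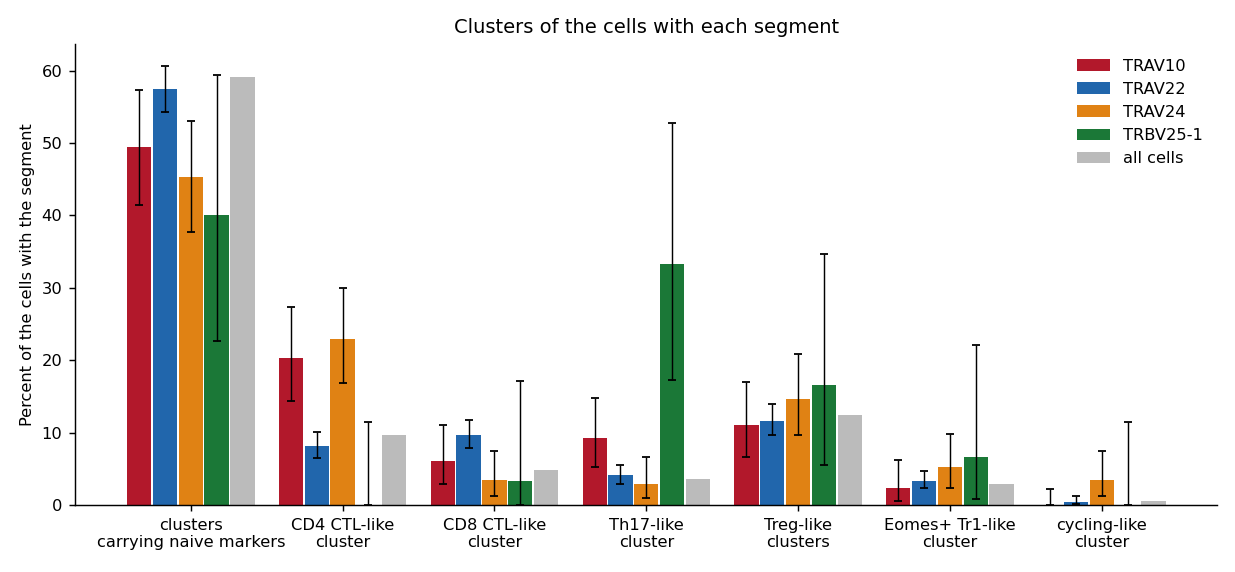
Percent of the cells with each segment that lie in each set of clusters, with exact 95% intervals, beside all 8830 cells in grey. *TRAV10* (20.4%) and *TRAV24* (22.9%) exceed all cells (9.66%) in the CD4 CTL-like cluster, *TRAV22* (9.68%) exceeds all cells (4.94%) in the CD8 CTL-like cluster, and *TRBV25-1* (33.3%) exceeds all cells (3.59%) in the Th17-like cluster.

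Gene by gene, few features differed by a factor of 2. In *TRAV10* cells 0.275% of 5454 genes tested (those with at least 10 UMIs expected) were at least 2-fold higher and 2.13% at least 2-fold lower. Of the cytotoxic list, 2 of 16 tested were at least 2-fold higher. These were *GZMK*, granzyme K of memory cells (158 UMIs in 27 cells, 254 against 99.3 CPM, log2 ratio 1.35), and *KLRG1*, an inhibitory receptor of effector cells (47 UMIs in 24 cells, 1.38). *KLRD1*, the CD94 chain of NK receptors, was 2-fold lower or more (6 UMIs, -1.65). The median log2 ratio of the list was 0.54, against 0.01 over all genes tested. None of the 6 naive genes passed 2-fold either way. Of the 2 innate-like genes tested, *KLRB1* (CD161, a receptor of Th17 and innate-like T cells) was higher, with 86 UMIs in 30 cells and 138 against 57.1 CPM (1.28). Outside the lists, *CSF1*, a myeloid growth factor gene, was higher, with a UMI in 26 cells (1.51). *GZMB*, the main granzyme of these cytotoxic clusters, had 813 UMIs in 46 *TRAV10* cells and a log2 ratio of 0.60, under the 2-fold line.

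In *TRAV24* cells 0.488% of 5741 genes tested were at least 2-fold higher and 1.86% at least 2-fold lower. Cytotoxic genes made up 3 of the higher ones, of 19 tested, with a list median of 0.64 against 0.07 over all genes. They were *GZMK* (188 UMIs in 32 cells, 275 against 98.6 CPM, log2 ratio 1.48), *GZMA* (70 UMIs in 25 cells, 102 against 37.7 CPM, 1.44) and *TBX21* (24 UMIs in 19 cells, 1.24), which encodes T-bet, the factor of type 1 effector cells. Both cycling genes tested were higher as well: *STMN1*, a microtubule regulator (287 UMIs in 72 cells, 419.5 against 183.1 CPM), and *PCNA*, the clamp of the replication fork (52 UMIs in 25 cells, 1.26). Under the test limit, *MKI67* gave 15 UMIs in 8 cells and *TOP2A* 10 UMIs in 5. *CD8A* was at -0.66 and *IL7R* at -0.20, both within 2-fold.

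In *TRAV22* cells 0.128% of 9384 genes tested were at least 2-fold higher and 1.79% at least 2-fold lower. None of 21 cytotoxic, 6 naive or 7 innate-like genes tested was among them, and the medians of the 3 lists were 0.12, -0.01 and 0.03 against 0.01 over all genes. Within the cytotoxic list the genes still differed among themselves, from *GZMK* at -0.74 to *KLRD1* at 0.46 and *KLRG1* at 0.45. *CD8A*, the alpha chain of the CD8 coreceptor, stood at 231 against 159 CPM (839 UMIs in 328 cells, log2 ratio 0.54).

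In *TRBV25-1* cells 0.47% of 1276 genes tested were at least 2-fold higher and 3.76% at least 2-fold lower. The cytotoxic list was split, with 2 of 8 tested higher and 2 lower. *CTSW*, cathepsin W of cytotoxic cells (40 UMIs in 14 cells, log2 ratio 1.78), and the cofactor gene *HOPX* (29 UMIs in 8 cells, 1.44) were higher. *GZMB* (25 UMIs in 3 cells, -2.03) and *GNLY*, granulysin (5 UMIs in 3 cells, -1.44), were lower. *CD8A* was higher too, with 55 UMIs in 19 of the 30 cells (1.49). *KLRG1* (26 UMIs in 10 cells, 2.92) and *KLRB1* (42 UMIs in 9 cells, 2.63) lay under the limit for testing. Most UMIs of *CTSW*, *HOPX*, *CD8A*, *KLRG1* and *KLRB1* lay in the 11 cells that also held *TRAV10*, described below. In the 19 *TRBV25-1* cells without *TRAV10*, *KLRB1* gave 3 UMIs in 1 cell.

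Genes of other cell types moved with all 4 segments. The 6 B cell genes gave 22 UMIs in *TRAV10* cells, 35.4 against 191 CPM (log2 ratio -2.43), and the log2 ratios in *TRAV22*, *TRAV24* and *TRBV25-1* cells were -1.47, -0.999 and -2.88. The 6 monocyte genes gave -3.61, -1.17, -2.60 and -3.50 in the same order. The reference cells without a given segment include all or nearly all of the 162 B-like, 19 monocyte-like and 55 innate-like cluster cells, and *CD74*, the MHC class II chaperone, was among the lower genes of *TRAV10* cells (-2.26) and *TRAV24* cells (-1.13) for that comparison. With those 3 clusters left out of both sides, a choice made after the values were seen, *CD74* came to 0.42 (0.12 to 0.71) in *TRAV10* cells and 0.50 (0.21 to 0.77) in *TRAV24* cells. *HLA-DPA1*, an MHC class II chain, was then 75.5 against 34.4 CPM in *TRAV10* cells (1.13) and 93.1 against 34.0 CPM in *TRAV24* cells (1.46). So the low *CD74* of all *TRAV10* and *TRAV24* cells did not hold among T cell clusters. In *TRAV22* cells *CD74* came to -0.07 (-0.22 to 0.08). With the same clusters left out *CD74* stayed at -2.68 (-7.98 to -0.20) where *TRAV10* and *TRBV25-1* were both present, on 1 UMI in 11 cells. In *TRBV25-1* cells *HLA-DPB1* stayed at -1.96 (-3.84 to -0.61), on 4 UMIs. Their *CD74* (-0.63, -1.76 to 0.30) and *HLA-DPA1* (-1.05, -4.10 to 0.80) were no longer set apart from 0 by counting error.

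The *TRAV10* cells fell into 3 kinds. There were 11 with *TRBV25-1*, 37 with both unnamed features ENSMFAG00000028841 and ENSMFAG00000040021, and 114 with neither of these combinations. No cell belonged to both of the first 2 kinds. This division was made after the features most like *TRAV10* had been seen, so the values below describe it.

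**Figure D4:**
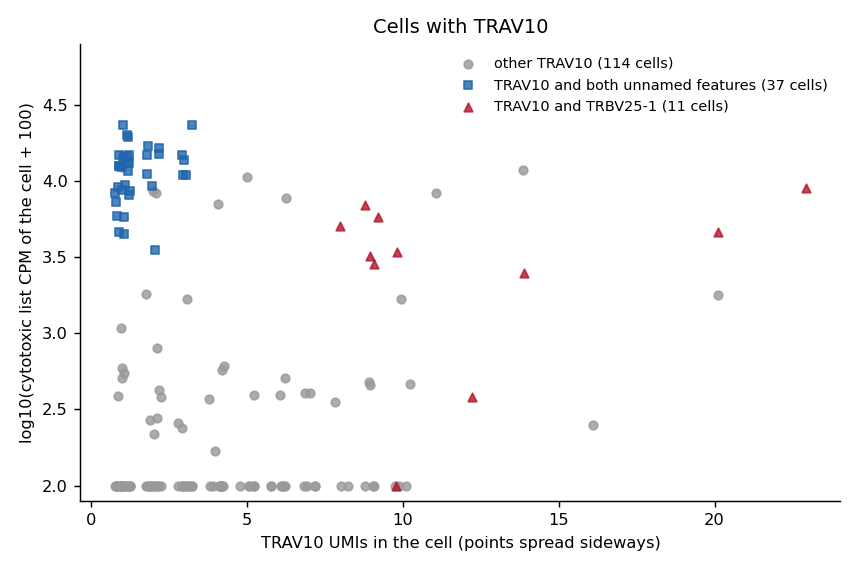
Each of the 162 *TRAV10* cells by its *TRAV10* UMIs (horizontal) and its cytotoxic list on the log10 scale of CPM with 100 added (vertical); red are the 11 cells with *TRBV25-1*, blue the 37 cells with both unnamed features, grey the other 114. Blue cells sit at 1 to 3 UMIs with a median of 12488 CPM, red cells at 8 to 23 UMIs, and 75 grey cells lie on the floor without a cytotoxic UMI.

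The 37 cells with both unnamed features held 1 to 3 UMIs of *TRAV10* (54 in all), and 25 of them held 1. Whether reads of *TRAV10* and of these more abundant entries were shared or divided in the authors' counting was not tested, so *TRAV10* in these cells is uncertain. They held far more of the unnamed features, with a median of 5 UMIs of ENSMFAG00000028841 and 13 of ENSMFAG00000040021. Their cytotoxic list stood at 11776 against 2653 CPM, a log2 ratio of 2.15 (2.08 to 2.22), and their naive list at -2.91 (-3.35 to -2.50). In the CD4 CTL-like cluster lay 32 of the 37 (86.5%). They were therefore most of the 33 *TRAV10* cells there. All 37 held *GZMB* (700 UMIs, 4657 against 851 CPM, log2 ratio 2.45) and all 37 *NKG7* (310 UMIs, 2.08), and 140 of the 158 *GZMK* UMIs of *TRAV10* cells lay in 21 of them. Their median depth was 3888 UMIs, and 5 were among the cells with the highest doublet scores. In all, 191 cells held both features, 161 of them CD4 CTL-like (84.3%), and the 154 without *TRAV10* had log2 ratios of 2.08 for cytotoxic and -2.31 for naive genes. None of the 37 held *TRAV22*, *TRAV24*, *TRBV25-1* or *ZBTB16*. ENSMFAG00000028841 leads that cluster's genes and was used in the clustering. Without the unnamed features in the clustering, 33 *TRAV10* cells (20.4%) were again CD4 CTL-like.

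The 114 other *TRAV10* cells held 1 to 20 UMIs of the segment, with a median of 3. They were low in cytotoxic genes, 1033 against 2719 CPM, a log2 ratio of -1.40 (-1.54 to -1.26), and slightly high in naive genes, at 0.25 (0.16 to 0.33). Naive-marker clusters held 80 of them (70.2%), and 75 had no cytotoxic UMI at all. The summed cytotoxic lean of *TRAV10* cells thus came from the 37 cells with both unnamed features and, to a lesser degree, from the 11 with *TRBV25-1*. What those unnamed features are was not analysed here.

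In the 11 cells with *TRAV10* and *TRBV25-1* *TRAV10* gave 8 to 23 UMIs per cell, median 10. *TRBV25-1* gave 1 to 4, median 2, as in the 19 *TRBV25-1* cells without *TRAV10* (1 to 7, median 2). *TRAC* was found in 10 of the 11, and 3 also held *TRAV22*, at 1, 2 and 9 UMIs. Their innate-like list stood at 1577 against 140 CPM, a log2 ratio of 3.50 (3.17 to 3.81), the cytotoxic list at 0.41 (0.20 to 0.61) and the naive list at 798 against 2341 CPM, -1.55 (-2.02 to -1.12). *TRAV10* cells without *TRBV25-1* had an innate-like log2 ratio of 0.09, and the 19 *TRBV25-1* cells without *TRAV10* had -0.59, so the innate-like lean of both segments was that of the cells holding both. *ZBTB16* gave 14 UMIs in 7 of the 11 cells, and 0 in the other 151 *TRAV10* cells and the other 19 *TRBV25-1* cells.

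Cytotoxic genes in these 11 cells differed among themselves. Of the 4 tested, 0 were at least 2-fold higher and 2 at least 2-fold lower, with a median of -0.87 against -0.03 over all genes. The granule genes summed to a log2 ratio of 0.02, the transcription factors to 1.79 (1.26 to 2.26) and the surface receptors to 1.82 (1.24 to 2.34). The pore-forming *PRF1* (22 UMIs in 9 cells, 2.54), *CTSW* (35 UMIs in 9 cells, 2.71), *HOPX* (27 UMIs in 7 cells, 2.46) and *KLRG1* (25 UMIs in 9 cells, 3.99) lay under the limit for testing. *NKG7*, a granule membrane gene, was found in 9 cells (43 UMIs, 0.69). *GZMB* gave 1 UMI in the 11 cells, and *GZMA* and the chemokine gene *CCL5* gave 0. Thus *GZMB*, found in all 37 *TRAV10* cells with both unnamed features, was hardly detected in those with *TRBV25-1*.

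Among innate-like genes, *KLRB1* (39 UMIs in 8 cells, 3.65), the chemokine receptor gene *CCR6* (7 UMIs in 4 cells) and *RORA* (9 UMIs in 5 cells) were found in these cells. The NK receptor gene *KLRF1* (14 UMIs in 6 cells, 3.88) belongs to a separate NK list, whose other genes are not given here. Of the memory genes *IL7R*, the receptor of the survival cytokine IL-7, stood at 1725 against 710 CPM (93 UMIs, 1.28). Also among the 5 tested genes with the largest log2 ratio were *NFKBIA*, an inhibitor of NF-kB, at 74 UMIs in all 11 cells (1.84), *IRF1* at 1.36 and *DUSP1* at 149 UMIs (1.15). The 6 thymic genes (among them *RAG1*, *DNTT* and *CD1A*) gave 0 UMIs. Of 539 genes tested, 1.67% were at least 2-fold higher and 5.94% at least 2-fold lower. The latter held the naive genes *CCR7* (1 UMI, -4.34) and *LEF1* (7 UMIs, -1.17) and 2 of 4 cytotoxic genes tested, *GZMB* and *CCL5*.

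Cell by cell, 9 of the 11 were Th17-like and 2 Treg-like. The 2 Treg-like cells had 0 UMIs of *KLRB1* and *NKG7*, depths of 3532 and 7307 UMIs, and doublet scores at the percentiles 93.1 and 95.5 of all cells. In 1 of them *ZBTB16* gave 1 UMI, and in the other 0. The 9 Th17-like cells held from 0 to 9 UMIs of *KLRB1* and from 0 to 5 of *ZBTB16*. Both markers were missing from only 1 of these 9. The median depth of the 11 cells was 4445 UMIs, above that of all cells.

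The CD8 tag was high in these cells. It gave 1365, 1306, 2071, 1486, 1724, 900, 676, 2262, 404, 1892 and 1904 UMIs in the 11 cells, where the median of all cells was 298 and the threshold between low and high 504. The lowest, 404, belonged to a Treg-like cell. The CD4 tag ran from 286 to 732 in the same cells, all above its threshold of 145.8. So 10 of 11 (90.9%, 58.7 to 99.8) were high for both tags, against 21.1% (20.1 to 21.99) of the cells with none of the 4 segments, and *CD8A* transcripts followed, with 41 UMIs in 10 cells and 760.5 against 166 CPM (log2 ratio 2.19).

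Over the whole segments the tags differed less. High for both tags were 16 of 30 *TRBV25-1* cells (53.3%, 34.3 to 71.7), 49 *TRAV10* cells (30.2%, 23.3 to 38.0), 259 *TRAV22* cells (27.6%, 24.7 to 30.5) and 35 *TRAV24* cells (20.6%, 14.8 to 27.5). *TRAV24* cells did not differ from cells without a segment beyond counting error. Without the 11 cells the *TRAV10* share was 25.8%. The *TRBV25-1* share was then 6 of 19 (31.6%, 12.6 to 56.6), with a median CD8 tag of 340. Median CD8 tags were 560.5 for *TRBV25-1*, 346.5 for *TRAV10*, 325.5 for *TRAV22* and 308.5 for *TRAV24*, against 294 with none of the 4. Median CD4 tags lay between 426 and 470.5 for the 4 segments, against 416.

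**Figure D5:**
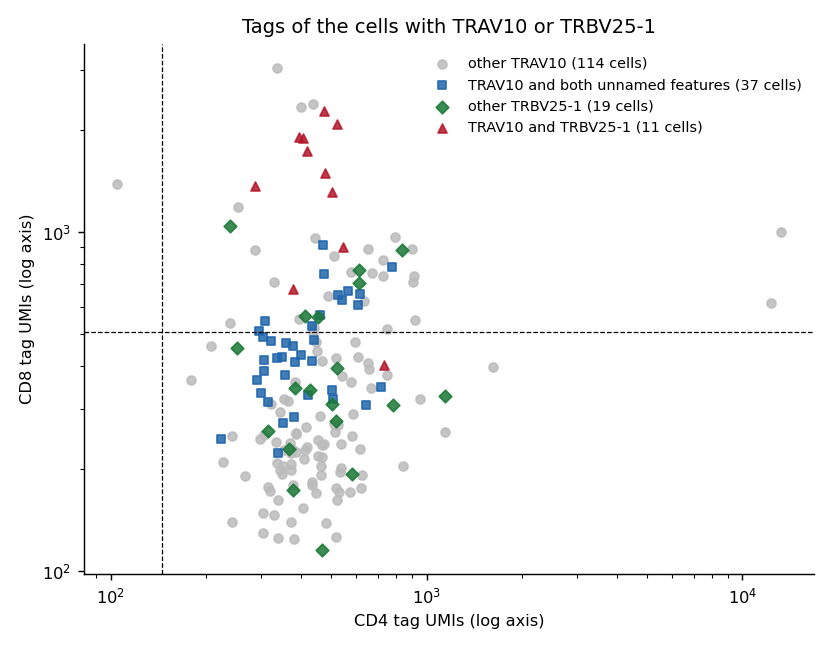
CD4 (horizontal) and CD8 (vertical) antibody tag UMIs on log axes for the 181 cells with *TRAV10*, *TRBV25-1* or both; dashed lines are the thresholds of 145.8 and 504 UMIs. Of the 11 cells with both segments, 10 lie in the upper right corner and 1 at 404 CD8 tag UMIs just under the line.

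Subsets of *TRAV22* cells were split off by the 2 unnamed features most like it, after the values were seen. Both features were left in the clustering. Cells with these features but without *TRAV22* were not compared. Whether the traits below go with *TRAV22* or with the features was therefore not tested. *TRAV22* was at 1 UMI in 15 of the 68 cells and in 47 of the 102 cells described here. Its cells with the unnamed feature ENSMFAG00000027795 (68 cells, 7.23% of *TRAV22* cells against 3.40% of the rest) were CD8 CTL-like in 32 (47.1%) and CD4 CTL-like in 0, with a median CD8 tag of 1002.5 and a cytotoxic log2 ratio of 1.51. Of these, 19 (27.9%) were high for CD8 and low for CD4. Its cells with ENSMFAG00000030274 (102 cells, 10.9% against 2.47%) were instead CD4 CTL-like in 65 (63.7%) and CD8 CTL-like in 9, with a median CD8 tag of 568 and a cytotoxic log2 ratio of 1.53. The nearly flat sum over all 940 *TRAV22* cells therefore contained at least these sets of cytotoxic cells with different tags and clusters. The share of *TRAV22* cells low for CD4 and high for CD8 went from 2.06% at 1 UMI to 5.39% at 2 or 3 and 10.4% at 4 or more, beside 4.76% of cells with none of the 4 segments.

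Among the named beta segments *TRAV24* was joined most often by *TRBV28*, found in 18 of its 170 cells (10.6%, 6.397 to 16.2), against 3.25% of the rest. In 0 of these 18 did both segments reach 2 UMIs. These 18 cells were CD4 CTL-like in 13 and cycling-like in 3, with log2 ratios of 1.92 (1.83 to 2.02) for cytotoxic and -2.31 for naive genes. *GZMB* gave 351 UMIs in 17 of them (2.31), while *GZMK* gave 8 of the 188 UMIs of *TRAV24* cells. The 152 *TRAV24* cells without *TRBV28* kept a cytotoxic log2 ratio of 0.42 and a naive one of -0.19, and the 281 *TRBV28* cells without *TRAV24* had 0.29 and -0.04. In the CD4 CTL-like cluster *TRBV28* too was mostly a matter of 1 molecule, at 1 UMI in 49 of 53 cells. The gamma chain segment *TRGV10* was found in 21 *TRAV24* cells (12.4%, against 5.32%).

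*TRAC* completed the account of the alpha chain. With cells thinned to 2200 UMIs it was found in 58.4% of *TRAV24* cells (50.5 to 66.0) against 47.8% of the rest, in 42.5% of *TRAV22* cells (39.2 to 45.8) against 48.7%, and in 47.3% of *TRAV10* cells against 48.0%. *ZBTB16* was found in 14 *TRAV22* cells with 18 UMIs, counting any of the 11 cells among them, a log2 ratio of -0.03 to cells without *TRAV22*, and in 0 *TRAV24* cells.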

How the data were processed

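Per the submitters' processing notes, the authors used Cell Ranger 3.1.0 for alignment (STAR 2.5.1b, build Macaca_fascicularis_5.0) and Seurat 3.1.3 afterwards. What they deposited are UMI counts, not normalized, of each gene and tag in every barcode called a cell. The counts were used as deposited. The study's limits on genes and mitochondrial UMIs removed 123 of 8953 barcodes and left 8830. The study states a lower number of cells after filtering, and the cause of the gap was not tested. Clusters came from Seurat 5.3.0 in R 4.3.3 (2000 variable genes, 20 components, 20 neighbours, resolution 0.8), without tags and variable segments. Cluster names need at least 3 of a list's markers, by rules set after clusters were seen. 9 of the marker lists come from the study, which found them on these same cells. Tag thresholds came from 2-component mixtures on log10 counts. The doublet caller Scrublet (scanpy 1.11.5) called 0 cells and so did not work here. The 530 cells (6%) with the highest scores were left out as an alternative instead.

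Other steps used Python 3.11.15, numpy 2.4.6, scipy 1.17.1, pandas 2.3.3 and scikit-learn 1.9.0. List and gene values are UMIs summed over cells, as CPM with exact Poisson intervals, and log2 ratios carry an interval from the exact binomial division of UMIs between groups. Shares take Clopper-Pearson intervals. The limit that a count of 0 allows is 3 cells of the total. Genes with at least 10 UMIs expected counted as tested, and a fold of 2 as called. Cells are not replicates, and 1 library pair allows no test. Scripts were tested on simulated counts. The text names the segments, listed genes, other receptor segments, the 5 genes with the largest log2 ratio each way, and the 3 features most alike in detection by phi. 3 cytotoxic genes and 1 innate-like gene were not among the symbols. Segments, gene lists and rules were chosen with earlier results of these data known. No genome of the build was used here, so no coordinates or sequences are given. Some genes of the lists are not reported here by name.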

Additional observations from a re-analysis of the deposited data

How the results depend on the processing

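Of 75 results, 352 alternatives gave 257 values near the reported one (within its counting interval, the quartiles of a tag, or 1.5 times a percent of genes) and 95 further off. The sign changed in 24. Asking for 2 UMIs of the segment lowered the shares to 1.26% (*TRAV10*), 6.81% (*TRAV22*), 1.09% (*TRAV24*) and 0.227% (*TRBV25-1*). The alternatives with 4 UMIs, without the cells of particular pairs or features, and without the B-like, monocyte-like and innate-like clusters were chosen after seeing the data. With 4 UMIs the shares were 0.748%, 2.60%, 0.521% and 0.0793%, and thinning gave 9.03% for *TRAV22* and 1.62% for *TRAV24*. The cause of the changes below was not tested.

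The naive log2 ratio of *TRAV10* was -0.0616 with 2 UMIs, -0.14 after thinning, -0.0037 with 4 UMIs and 0.21 without both the *TRBV25-1* cells and the cells with both unnamed features. For *TRAV22* it was 0.0707 after thinning, -0.15 with 4 UMIs, -0.0602 against T cells with none of the segments and -0.0554 without those cells. For *TRAV24* it was -0.13 with 2 UMIs, -0.24 after thinning and -0.17 with 4 UMIs. For *TRBV25-1* it was -0.62 with 2 UMIs and 0.20 without those cells, and for the 11 cells with both segments -0.73 with 4 UMIs, which left 3 cells.

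The cytotoxic log2 ratio of *TRAV10* was 0.0416 with 2 UMIs, 0.23 after thinning, 0.60 without the highest doublet scores, -0.62 with 4 UMIs, 0.59 as a mean over cells and -1.27 without those cells. For *TRAV22* it was 0.15 with 2 UMIs, -0.11 after thinning, 0.0711 without the highest doublet scores, 0.20 with 4 UMIs, 0.16 against T cells, 0.0396 as a mean over cells and 0.25 without those cells. For *TRAV24* it was 0.22 with 2 UMIs, 0.54 after thinning, 0.35 with 4 UMIs, 0.82 without those cells and 0.43 without the *TRBV28* cells. For *TRBV25-1* it was 0.21 with 2 UMIs, 0.59 with 4 UMIs and -0.27 without those cells. For the 11 cells it was 0.65 without the highest doublet scores, -0.57 with 4 UMIs and 0.70 as a mean over cells.

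The innate-like log2 ratio of *TRAV10* was 1.22 with 2 UMIs, 1.75 with 4 UMIs and -0.023 without those cells. For *TRAV22* it was -0.28 after thinning and 0.31 with 4 UMIs, for *TRBV25-1* 2.80, 1.92 and -0.55 in the order given for *TRAV10*, and for the 11 cells 2.53 with 4 UMIs. All 11 cells (100%) were Th17-like at resolution 0.4 and with 10 components. No cluster was named CD8 CTL-like in those clusterings, so *TRAV22* has no value there. *CD74* without the 3 clusters came to 0.42 in *TRAV10* and 0.50 in *TRAV24* cells.

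With at least 5 UMIs expected per gene, 0.8002% of genes were 2-fold higher and 3.85% lower for *TRAV10*, 0.378% higher for *TRAV22*, 1.09% and 3.41% for *TRAV24*, 0.999% and 7.84% for *TRBV25-1* and 2.73% higher for the 11 cells. With at least 20 expected they were 0.121% and 1.09% for *TRAV10*, 0.0731% and 1.02% for *TRAV22*, 1.09% lower for *TRAV24*, 0% and 1.33% for *TRBV25-1* and 3.19% lower for the 11 cells. No paired analysis was possible because the series holds 1 library pair of 1 animal. *TRBV25-1* rests on 77 UMIs in 30 cells.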

Other observations

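Of the 123 barcodes outside the study's limits, 1 held *TRAV22* and 0 held *TRAV10*, *TRAV24* or *TRBV25-1*.

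The gamma chain constant gene *TRGC2*, the only measured member of 3 gamma delta constant genes listed, gave 6 UMIs in the 11 cells with *TRAV10* and *TRBV25-1* (111 against 19.7 CPM) and 12 UMIs in all 162 *TRAV10* cells (19.3 against 19.9 CPM). The erythroid genes, at 4513 UMIs outside *TRAV10* cells, gave 0 UMIs in *TRAV10* and *TRAV24* cells and 1 UMI in the 940 *TRAV22* cells. The 7 measured memory genes were at a log2 ratio of 0.42 (0.37 to 0.47) in *TRAV24* cells and 0.16 (0.10 to 0.22) in *TRAV10* cells.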
